A study of Mus musculus with 4 samples.

Results

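The cell cycle and DNA replication genes are 45 genes fixed by name, in 5 roles: 10 replication genes (Mcm2 to Mcm7, Mcm10, Cdc6, Cdt1 and Pcna), 12 cyclins and cyclin-dependent kinases (CDKs), 6 CDK inhibitors, 11 E2F factors and pocket proteins, and 6 mitotic genes. All 45 were found among the 20701 gene symbols of the deposited transcript table. Symbols with several transcript entries were read at the entry with most counts over the 4 libraries. The 4 RNA-Seq libraries came from mouse cardiac progenitor cells (CPCs), made from E14 Tg(Nkx2-5-EmGFP) embryonic stem cells and sorted at day 5 of differentiation for the green fluorescent reporter of Nkx2-5. The 2 control libraries came from the control line and the 2 Isl1_KO libraries from Isl1-/- cells of that line made with CRISPR/Cas9, with 2 different clones sorted for each genotype. The comparison asks how loss of Isl1, a homeobox factor that marks second heart field progenitors, altered the transcripts of these progenitors, and since all 4 libraries carry the reporter, only reporter-positive cells were sampled.

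Cells enter DNA synthesis once D-type and E-type cyclins with their kinases phosphorylate the retinoblastoma family of pocket proteins, which frees activating E2F factors to drive transcription of replication genes. Cdc6 and Cdt1 load the ring of Mcm2 to Mcm7 onto origins in G1, Mcm10 takes part in turning that ring into an active helicase, and Pcna is the sliding clamp of the replicative polymerases. Cyclins A and B with Cdk1 then carry the cell through G2 and mitosis, and many genes of that phase are held down in resting cells by the DREAM complex through an element called CHR (cell cycle genes homology region). Cardiac progenitors of the embryo divide actively and slow their cycle as they become cardiomyocytes.

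The promoters of the members carried the letters of these elements at shares that differed between the roles. Of the 45 members, 36 had at least 1 promoter in the RefSeq table used here (build GRCm38.p6, 250 bases before to 50 after the transcription start). An E2F motif (TTTCCCGC, TTTCGCGC, TTTGCCGC or TTTGGCGC on either strand, where matches may overlap each other) was found in 13 of these 36 members, 6 of 9 replication genes among them, and in none of 5 mitotic genes. Over all 32851 promoters of the table the share with this motif was 2.26%, and over the 9870 tested genes with a promoter it was 4.82%. The CHR motif (TTTGAA on either strand) was found in 4 of 5 mitotic genes and in 1 of 9 replication genes, against 17.9% of all promoters and 13.8% of the tested genes. The 4 replication promoters and 2 mitotic promoters below are shown because they hold the letters counted here, and their transcript levels are given further on. Each line is 120 bases, 5′ to 3′ on the strand of the gene, and capitals mark the motif. A further E2F match in Mcm6 (at -47 from the start site) and a further CHR match in Top2a (at -23) are not wholly within the printed bases. These are not marked. They lie at Cdc6 at chr11:98907957-98908076 on the plus strand, Mcm3 at chr1:20820263-20820382 on the minus strand, Mcm5 at chr8:75109300-75109419 on the plus strand, Mcm6 at chr1:128359752-128359871 on the minus strand, Plk1 at chr7:122159365-122159484 on the plus strand and Top2a at chr11:99024306-99024425 on the minus strand.
Cdc6: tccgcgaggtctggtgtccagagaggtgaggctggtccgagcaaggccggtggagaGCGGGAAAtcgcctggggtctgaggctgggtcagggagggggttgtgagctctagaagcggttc
Mcm3: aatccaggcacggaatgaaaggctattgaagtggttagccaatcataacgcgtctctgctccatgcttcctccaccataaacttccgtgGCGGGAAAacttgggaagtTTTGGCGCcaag
Mcm5: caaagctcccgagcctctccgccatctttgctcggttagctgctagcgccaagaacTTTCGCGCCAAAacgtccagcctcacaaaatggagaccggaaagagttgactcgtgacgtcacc
Mcm6: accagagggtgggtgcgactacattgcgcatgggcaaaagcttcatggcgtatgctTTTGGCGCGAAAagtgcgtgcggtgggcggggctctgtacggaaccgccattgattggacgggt
Plk1: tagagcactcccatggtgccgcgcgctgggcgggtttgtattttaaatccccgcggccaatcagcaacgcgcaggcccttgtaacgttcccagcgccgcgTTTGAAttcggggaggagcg
Top2a: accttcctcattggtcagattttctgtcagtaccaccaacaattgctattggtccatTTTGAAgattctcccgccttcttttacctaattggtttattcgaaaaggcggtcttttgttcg

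In Mcm5 and Mcm6 the capitals cover a pair of overlapping matches, one on each strand. Mcm10, with the highest log2 fold change of the members, held neither motif in this window, and Ccnd2, with the lowest, was not among the 36. A match of letters is a description, and no binding was measured here. Members with the E2F motif had a median log2 fold change 0.274 above that of all tested genes, and members without it 0.22. Over all tested genes these medians were 0.0729 with the motif and -0.000117 without it. For the CHR motif the order was the other way among the members, at 0.244 with it and 0.266 without it, while over all tested genes the medians were 0.0374 and -0.00215.

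Isl1 itself was covered by 309 and 326 reads in control and by 17 and 24 in Isl1_KO. It fell by 4.39 on the log2 scale (SE 0.212, adjusted p 0.00277 in edgeR's quasi-likelihood test), as the labels say. After 1 entry was kept per symbol, the control libraries held 8821517 and 9147425 counts and the Isl1_KO libraries 13186109 and 11388333, and 12715 genes passed the filter on low counts, of which 311 were called at an adjusted p under 0.05. The control libraries were far closer to each other than the Isl1_KO libraries were. Between replicates, chi-square per degree of freedom was 1.14 in control and 18.7 in Isl1_KO, where sampling noise alone gives values near 1. The control pair thus differed by little more than sampling noise. If its libraries were not from separate clones, the control SDs would hold technical spread only, and the SEs and p-values below would be too small. The sorted cells expressed the cardiac progenitor markers, but 6 of 9 of these were called lower in Isl1_KO. Nkx2-5 (log2 fold change -2.16, adjusted p 0.00703 by edgeR), Mef2c and Tbx5 were among them. The sums over all 9 were 1695 and 1715 CPM in control and 1512 and 1218 CPM in Isl1_KO. The largest part of each sum was Hand1, at 839 and 848 CPM in control and 1122 and 871 CPM in Isl1_KO. Hand1 alone of the 9 had a positive log2 fold change (0.24, adjusted p 0.329 by edgeR). The list median was -1.71 relative to all genes.

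The members as a whole sat slightly higher in Isl1_KO. Their summed level was 6546 and 6513 CPM (counts-per-million, with effective library sizes) in control and 7366 and 7876 CPM in Isl1_KO, so the groups did not overlap. Of the 45 members, 44 passed the filter on low counts. Cdkn2d, the p19 inhibitor of the D-type cyclin kinases, did not, with 0 and 3 counts in control and 1 and 4 counts in Isl1_KO. The log2 fold change was positive for 36 and negative for 8 of the 44, with a median of 0.237 above the median of all tested genes. It was 0.171 in Isl1_KO replicate 1 and 0.288 in replicate 2, each against the control mean.

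After adjustment over all genes, 2 members rose (Mcm10 and Cdc6) and 1 fell (Ccnd2), or 3 of 44, where 2.45% of all tested genes were called, 0.503% as higher and 1.94% as lower. At an unadjusted p under 0.05, 20 members were higher and 1 was lower, against 11.0% of all tested genes higher and 12.2% lower. Both Isl1_KO libraries were above both control libraries for 28 of 44 members, where this held for 29.1% of all tested genes. Both were below for 4 members (Ccnd2, Cdkn1a, E2f8 and Rbl2), against 29.0% of all tested genes. The differences were small, and 42 of the 44 were under 1.5-fold. Under the criteria of the study (an absolute log2 fold change over 0.58 and an unadjusted p under 0.05 in DESeq2) Mcm10 was higher and Ccnd2 lower, which made 2 of 45 members against 5.89% of 16855 genes. An adjusted p under 0.05 in DESeq2 called 5 members (Mcm10, Cdc6, Mcm6, Ccna2 and Ccnd2), against 4.67% of the 12933 genes to which it gave an adjusted p.

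**Figure D1:**
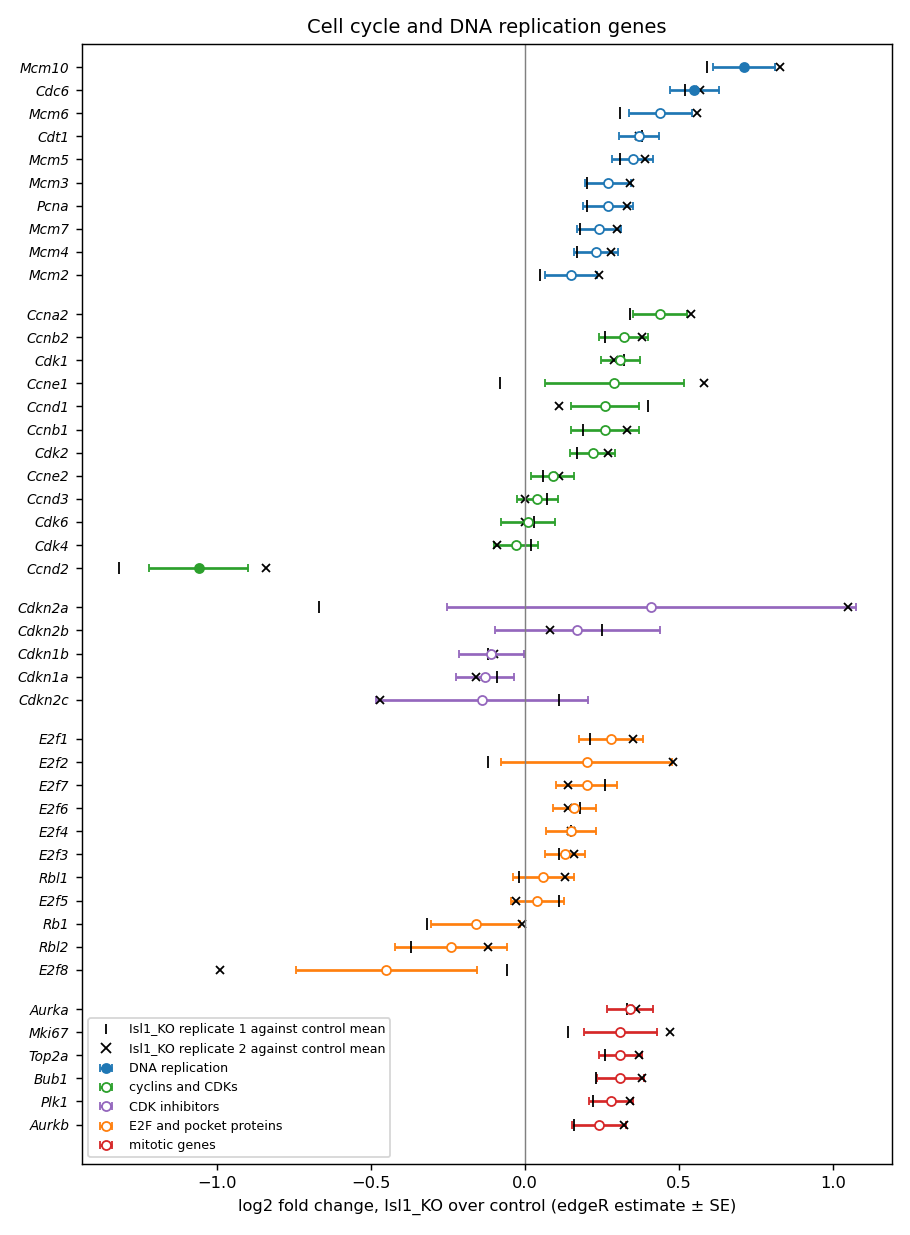
Log2 fold change of the 44 tested members (x axis, Isl1_KO over control; bars are the edgeR estimate ± SE), grouped by role, with a vertical tick for Isl1_KO replicate 1 and a cross for replicate 2, each against the control mean. Filled circles mark the 3 members with an adjusted p under 0.05. All 10 replication genes and all 6 mitotic genes sit to the right of 0, and Ccnd2 stands far to the left at -1.06.

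The replication genes were uniformly, if slightly, higher in Isl1_KO. All 10 had a positive log2 fold change, from 0.15 (Mcm2) to 0.71 (Mcm10), and each was higher in both Isl1_KO libraries than in both control libraries. Their median was 0.316 above that of all genes, or 1.24-fold. Their summed level was 1990 and 1953 CPM in control and 2329 and 2577 CPM in Isl1_KO. Of the 10, 2 passed the adjusted threshold and 9 had an unadjusted p under 0.05, all higher. Of all tested genes, 0.503% passed as higher, 11.0% were higher at that unadjusted p, and 29.1% were above both control libraries.

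Mcm10 (NCBIM37, chr2:4910760-4933837, minus strand) was at 81.3 and 76.8 CPM in control and at 119 and 140 CPM in Isl1_KO, from 716, 702, 1546 and 1615 counts. The groups were well apart, and Isl1_KO replicate 2 was the highest. It rose 1.64-fold (log2 fold change 0.71, SE 0.101, adjusted p 0.0397 by edgeR), from 79.0 ± 3.16 CPM (SD, n = 2) to 129 ± 15.0 CPM (SD, n = 2). Cdc6 (NCBIM37, chr11:98769115-98785254, plus strand), whose product opens the loading of the helicase at the origin, was at 47.6 and 45.6 CPM in control and at 67.0 and 69.4 CPM in Isl1_KO. Both groups were tight. It rose 1.46-fold (log2 fold change 0.55, SE 0.0792, adjusted p 0.0409 by edgeR). Leaving out either control library ended both calls, with the log2 fold changes at 0.67 to 0.75 for Mcm10 and 0.52 to 0.58 for Cdc6. Such fits hold 1 control library and few genes of any kind were called in them, so they cannot decide these calls.

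Mcm2, the helicase subunit with the smallest difference, was at 283 and 277 CPM in control and at 291 and 331 CPM in Isl1_KO. The groups did not overlap, but Isl1_KO replicate 1 was nearly at the control level, and the log2 fold change of 0.15 (SE 0.0849) had an adjusted p of 0.353 by edgeR. Mcm6 was at 330 and 313 CPM in control and at 399 and 473 CPM in Isl1_KO. Its log2 fold change was 0.44 (SE 0.101, adjusted p 0.0949 by edgeR), the largest among the 6 ring subunits. Mcm5 (log2 fold change 0.35), Mcm3 (0.27), Mcm7 (0.24) and Mcm4 (0.23) lay between these. Cdt1, the partner of Cdc6 in loading the ring, was at 87.0 and 84.1 CPM in control and at 111 and 110 CPM in Isl1_KO, with a log2 fold change of 0.37 and an adjusted p of 0.0606. Pcna was at 73.0 and 69.2 CPM in control and at 81.7 and 89.5 CPM in Isl1_KO, a log2 fold change of 0.27.

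**Figure D2:**
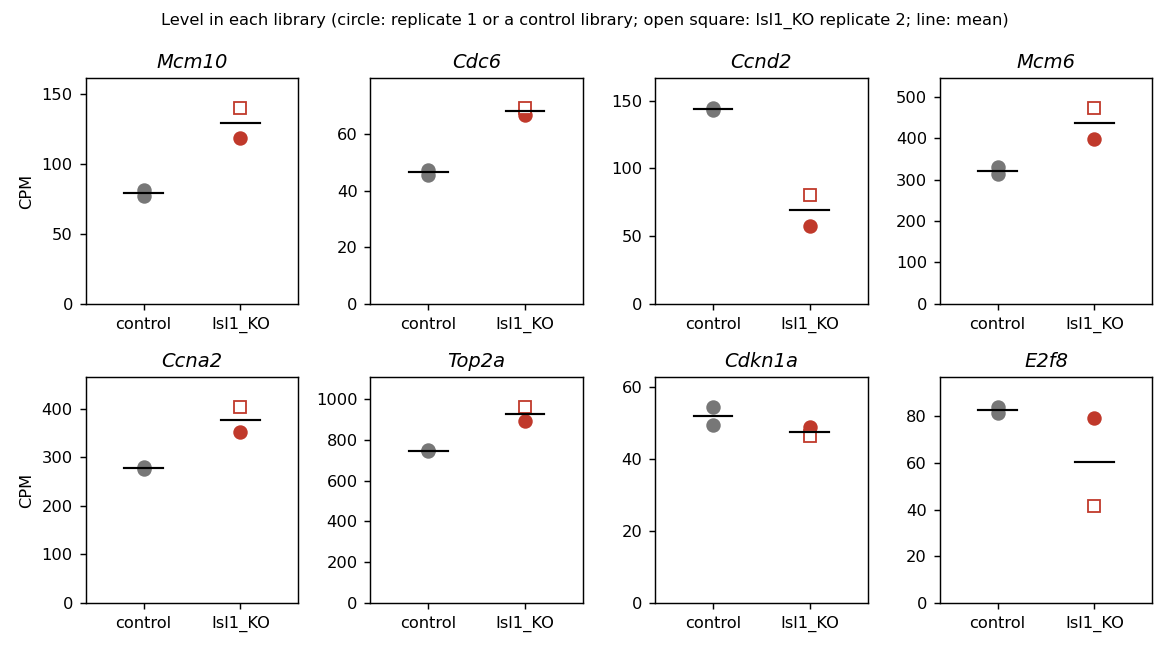
Level in CPM (y axis, from 0, scaled per panel) of 8 members in the 2 control libraries (grey) and the 2 Isl1_KO libraries (red circle, replicate 1; open red square, replicate 2), with a line at the mean of each group. The groups do not overlap in any of the 8 panels, though they nearly touch for Cdkn1a and E2f8. E2f8 is low in Isl1_KO replicate 2 alone, at 41.6 CPM.

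The mitotic genes showed a difference of similar size. All 6 had a positive log2 fold change within a narrow range, from 0.24 (Aurkb) to 0.34 (Aurka). None passed the adjusted threshold by edgeR, while all 6 had an unadjusted p under 0.05 and DESeq2 called 0. Of all tested genes, 11.0% were higher at that unadjusted p in edgeR. Their summed level was 1805 CPM in each control library and 2093 and 2382 CPM in the Isl1_KO libraries, and the median log2 fold change was 0.313 above that of all genes. Aurka, the kinase of the spindle poles, was at 74.6 and 81.5 CPM in control and at 98.0 and 100.1 CPM in Isl1_KO. The groups did not overlap (log2 fold change 0.34, SE 0.0751, adjusted p 0.0876 by edgeR). Aurkb, the kinase of the chromosomal passenger complex, was at 61.8 and 61.5 CPM in control and at 68.7 and 77.0 CPM in Isl1_KO (log2 fold change 0.24, SE 0.0866, adjusted p 0.19 by edgeR). Top2a, which untangles sister chromatids, was at 743 and 750 CPM in control and at 894 and 962 CPM in Isl1_KO, a log2 fold change of 0.31. The proliferation antigen Mki67 was at 642 and 629 CPM in control and at 701 and 878 CPM in Isl1_KO. Its distance from control was thus mostly that of replicate 2, 0.47 on the log2 scale against 0.14 in replicate 1. Bub1, a spindle checkpoint kinase, and Plk1 had log2 fold changes of 0.31 and 0.28.

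The size of the difference was not the same in the Isl1_KO libraries. Of the 16 replication and mitotic genes, 15 were higher in Isl1_KO replicate 2 than in replicate 1, Cdt1 being the exception. Over all 44 tested members this held for 31 (70.5%), against 51.6% of all tested genes. Among the 28 members above control in both libraries it held for 23 (82.1%), against 72.8% of the 3706 such genes overall. The medians of the replication genes were 0.26 and 0.351 in Isl1_KO replicates 1 and 2, and those of the mitotic genes were 0.229 and 0.361.

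**Figure D3:**
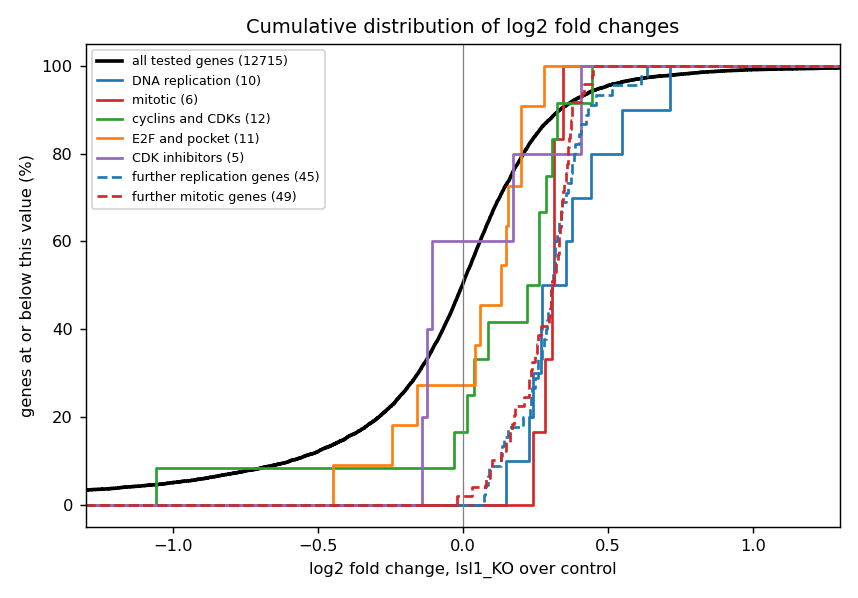
Cumulative share of genes (y axis, percent) at or below each log2 fold change, Isl1_KO over control (x axis), for all 12715 tested genes (black), the 5 roles of the members (solid colours) and the further replication and mitotic genes (dashed). The replication and mitotic curves run to the right of the black curve by about the same distance, with medians 0.316 and 0.313 above it, while the inhibitor curve has its median at -0.107.

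Cyclins and kinases were divided. Of the 12, 10 had a positive log2 fold change, 7 were above both control libraries and 1, Ccnd2, was below. Of all tested genes, 29.1% were above and 29.0% below. The groups overlapped for Ccnd3, Ccne1, Cdk4 and Cdk6. Ccna2 was at 275 and 280 CPM in control and at 352 and 404 CPM in Isl1_KO (log2 fold change 0.44, SE 0.0877, adjusted p 0.0762 by edgeR), and in DESeq2 its adjusted p was 0.0179. Ccnb2 was at 74.8 and 79.9 CPM in control and at 92.7 and 100.8 CPM in Isl1_KO, a log2 fold change of 0.32. Cdk1, their catalytic partner, was at 182 and 186 CPM in control and at 229 and 225 CPM in Isl1_KO, a log2 fold change of 0.31. For Ccnb1 and Cdk2 the log2 fold changes were 0.26 and 0.22. The G1 kinases Cdk4 (-0.03) and Cdk6 (0.01) lay at the control level. Ccne1 was at 39.6 and 41.1 CPM in control and at 38.2 and 60.4 CPM in Isl1_KO, so that its log2 fold change of 0.29 (SE 0.225) rested on replicate 2, and Ccne2 had a log2 fold change of 0.09.

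Ccnd2 (NCBIM37, chr6:127075797-127101066, minus strand), like the other D-type cyclins, is a partner of Cdk4 and Cdk6. It was at 143 and 145 CPM in control and at 57.7 and 80.6 CPM in Isl1_KO, from 1259, 1323, 751 and 929 counts. Both Isl1_KO libraries were far below both control libraries. It fell by 1.06 on the log2 scale (SE 0.161, adjusted p 0.0466 by edgeR), from 144 ± 1.31 CPM to 69.2 ± 16.2 CPM (SD, n = 2 each). The adjusted p was 0.0534 with a filter of at least 10 counts in every library and 0.0556 with all transcript entries in the fit. With an offset for transcript length it was 0.0654 (log2 fold change -0.90). The call was also lost without either control library, which such a fit cannot decide (log2 fold changes -1.07 and -1.05). Over all alternatives the log2 fold change ran from -1.32 to -0.84.

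The other D-type cyclins lay at or above the control level. Ccnd1 was at 232 and 222 CPM in control and at 300 and 245 CPM in Isl1_KO (log2 fold change 0.26, SE 0.111, adjusted p 0.238 by edgeR). It was the one cyclin that stood higher in Isl1_KO replicate 1 than in replicate 2 while lying above both control libraries. Ccnd3 was at 120 and 125 CPM in control and at 129 and 123 CPM in Isl1_KO, a log2 fold change of 0.04. Per kilobase of transcript, so that the 3 genes can be set against each other, Ccnd2 made up 17.3% and 17.6% of the D-type total in control and 6.67% and 10.2% in Isl1_KO. The D-type total itself was 143 CPM per kilobase in both control libraries and 150 and 137 in Isl1_KO, with the groups overlapping. Exons of Ccnd1 and Ccnd3 overlap those of Oraov1 and Bysl, and counting did not use strand.

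**Figure D4:**
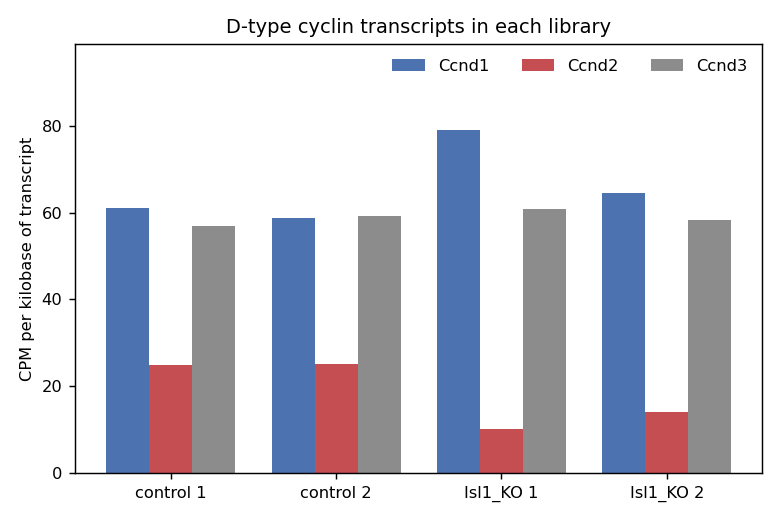
Level of Ccnd1, Ccnd2 and Ccnd3 in CPM per kilobase of transcript (y axis, from 0) in each of the 4 libraries (x axis, 1 bar per gene and library). Ccnd2 is at 24.8 and 25.1 in control and at 10.0 and 14.0 in Isl1_KO, while Ccnd3 stays between 57.0 and 60.9.

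Among the 6 CDK inhibitors chosen here none was called, by edgeR or by DESeq2, and none had an unadjusted p under 0.05. Cdkn1c was not among them. The median of the 5 tested was -0.104 relative to all genes, and it moved to 0.0488 when no filter was used, since Cdkn2d then entered. Cdkn1a, the p21 inhibitor and a target of p53, was at 54.6 and 49.5 CPM in control and at 48.9 and 46.5 CPM in Isl1_KO (log2 fold change -0.13, SE 0.0947, adjusted p 0.472 by edgeR). The lowest control library and the highest Isl1_KO library were nearly at the same level. Cdkn1b, the p27 inhibitor, was at 58.9 and 70.1 CPM in control and at 59.5 and 60.4 CPM in Isl1_KO, and the groups overlapped. The Cdkn2 genes had few counts. Cdkn2a encodes both the kinase inhibitor Ink4a and the unrelated protein Arf from transcripts that share exons. Its kept entry, that of the Arf transcript, had 15 and 9 counts in control and 11 and 32 counts in Isl1_KO, and its other entry had 9 and 4 against 8 and 23. The Cdk4 and Cdk6 inhibitors Cdkn2b and Cdkn2c were similarly low, Cdkn2b with 24 and 20 against 38 and 30, and Cdkn2c with 17 and 24 against 32 and 19. The log2 fold changes of Cdkn2a (0.41, SE 0.664) and Cdkn2c (-0.14, SE 0.346) turned in sign when 1 library was left out, and a difference was not detectable at this depth.

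E2F factors and pocket proteins were close to control as a group, with a median log2 fold change 0.135 above that of all genes. Of the 11, none was called by edgeR or DESeq2 and E2f1 alone had an unadjusted p under 0.05. E2f1, an activator, was at 28.8 and 28.7 CPM in control and at 33.2 and 36.5 CPM in Isl1_KO (log2 fold change 0.28, SE 0.104, adjusted p 0.202 by edgeR). The activator E2f3 and the factors E2f4, E2f6 and E2f7 were also above both control libraries, with log2 fold changes from 0.13 to 0.20, and E2f2, E2f5, Rb1 and Rbl1 overlapped with control. E2f8, an atypical repressor of the family, was at 81.4 and 84.0 CPM in control and at 79.3 and 41.6 CPM in Isl1_KO. Replicate 1 was at the control level and replicate 2 far below it, so the log2 fold change of -0.45 (SE 0.293, adjusted p 0.41 by edgeR) was -0.99 without Isl1_KO replicate 1 and -0.06 without replicate 2. E2f7, its closest relative, had a log2 fold change of 0.20. Rbl2 (p130), a pocket protein of resting cells, was low throughout, at 8.06 and 8.21 CPM in control and 6.30 and 7.46 CPM in Isl1_KO.

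Levels of the members spanned a wide range in these progenitors. On the scale of CPM per kilobase, the mean of the control libraries ran from 0.13 (Cdkn2d) to 493 (Cdk4), and Top2a (144), Mcm4 (107), Mcm3 (101) and Ccna2 (99.1) followed Cdk4. Mcm3 and Ccna2 were close neighbours in this order, at 101 and 100.2 against 98.3 and 99.9 in the control libraries. Exons of Cdk4 and Ccna2 overlap those of Tspan31 and Exosc9. In all, 9 members had an exon overlapping another protein-coding gene, the remaining ones being Mcm7, Ccne2, Cdk6, Rb1 and Rbl2.

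Further genes of the same pathways were taken from 4 fixed lists of 137 genes. Of 45 further replication genes, all 45 had a positive log2 fold change and 43 were above both control libraries, with a median 0.309 above that of all genes. None passed the adjusted threshold in edgeR, 35 had an unadjusted p under 0.05, all higher, and DESeq2 called 3. Pole2, a subunit of DNA polymerase epsilon, was at 28.5 and 24.6 CPM in control and at 40.4 and 42.0 CPM in Isl1_KO. Its log2 fold change was 0.63 with an adjusted p of 0.0658 by edgeR. Pole2 lies on chromosome 12 within 5 Mb of Mnat1 (described below), around which 57 tested genes had a median 0.40 above that of all genes. Whether Pole2 shared a shift of its region was not tested. Of 49 further mitotic genes, 48 had a positive log2 fold change, Cks2 at -0.02 being the exception, and 44 were above both control libraries, with a median of 0.308. None passed in edgeR, 38 had an unadjusted p under 0.05, all higher, and DESeq2 called 1. Of all tested genes, 29.1% were above both control libraries and 11.0% were higher at an unadjusted p under 0.05 in edgeR. DESeq2 called 4.67% of the genes to which it gave an adjusted p. The medians of both lists were thus close to those of the replication and mitotic members, and they were lower in Isl1_KO replicate 1 (0.221 and 0.233) than in replicate 2 (0.366 and 0.346). The motif shares were also divided in the further genes, with the CHR motif in 28 of 41 mitotic and 6 of 36 replication genes, and the E2F motif in 3 of 41 and 11 of 36.

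Of 22 genes of G1 control, the Myc family and the DREAM complex, 2 rose in edgeR and DESeq2 called 3. Of all tested genes 0.503% rose in edgeR, and DESeq2 called 4.67% of the genes to which it gave an adjusted p. The list median was 0.2 above that of all genes. Max, the dimer partner of Myc, was at 90.1 and 86.1 CPM in control and at 133 and 136 CPM in Isl1_KO (log2 fold change 0.61, SE 0.0647, adjusted p 0.0201 by edgeR). Mnat1, a subunit of the CDK-activating kinase, was at 90.7 and 98.0 CPM in control and at 149 and 145 CPM in Isl1_KO (log2 fold change 0.64, SE 0.0708, adjusted p 0.0227 by edgeR). Both genes are on chromosome 12, where their neighbours were higher too. The median of the 58 tested genes within 5 Mb of Max was 0.32 above that of all genes, and that of the 57 around Mnat1 was 0.40. Around the members themselves such medians were between -0.23 and 0.09. Leaving out either control library ended the calls of Max and Mnat1, which such a fit cannot decide. The log2 fold changes were then 0.58 and 0.64 for Max and 0.59 and 0.70 for Mnat1. Myc was at 64.5 and 61.2 CPM in control and at 94.5 and 131 CPM in Isl1_KO (log2 fold change 0.84, SE 0.166, adjusted p 0.0754 by edgeR). In DESeq2 Myc had an adjusted p of 8.0e-04 (log2 fold change 0.85) and met the criteria of the study.

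Of 21 targets and regulators of p53, 1 fell and none rose by edgeR, where 1.94% of all tested genes fell and 0.503% rose. The list median was 0.0855 above that of all genes. At an unadjusted p under 0.05 in edgeR, 4 were higher and 3 lower, against 11.0% and 12.2% of all tested genes. Both Isl1_KO libraries were above both control libraries for 7 and below for 6, against 29.1% and 29.0% of all tested genes. Btg2, an antiproliferative target of p53, was at 125 and 119 CPM in control and at 87.8 and 86.1 CPM in Isl1_KO (log2 fold change -0.49, SE 0.0654, adjusted p 0.0359 by edgeR). Both groups were tight. The call was lost without either control library, which such a fit cannot decide (log2 fold changes -0.45 and -0.52). Mdm2, another p53 target, was at 137 and 138 CPM in control and at 134 and 145 CPM in Isl1_KO, and Trp53 had a log2 fold change of 0.22.

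Markers of other cell states differed between the genotypes and between the Isl1_KO libraries. Of 10 cardiomyocyte genes, 9 fell, Tnni3 being the exception, and their summed level was 1953 and 2030 CPM in control and 124 and 73.7 CPM in Isl1_KO. Ttn, the sarcomeric spring, was at 386 and 454 CPM in control and at 3.54 and 2.95 CPM in Isl1_KO. The 6 smooth muscle genes summed to 2635 and 2647 CPM in control and to 2233 and 771 CPM in Isl1_KO, and 0 of them were called by edgeR or DESeq2, with 1 at an unadjusted p under 0.05. Between the Isl1_KO libraries the cardiomyocyte sums differed mostly by Actc1 (64.6 and 26 CPM), Myl4 and Actn2 were higher in replicate 2, and the list medians were -4.32 and -4.36. Isl1_KO replicate 2, the library with the higher levels of replication and mitotic genes, had the lower smooth muscle sum, with list medians of -0.261 in replicate 1 and -1.24 in replicate 2. Of 9 blood genes 1 rose in edgeR (Runx1, log2 fold change 0.57) and DESeq2 called 3. Runx1, Gata1 (0.85), Tal1 (0.93) and Itga2b (0.75) were higher and 2 genes lower at an unadjusted p under 0.05, and the list median was 0.345 above that of all genes. The blood sums nevertheless were 534 and 545 CPM in control and 403 and 285 CPM in Isl1_KO, since embryonic globin transcripts make up most of them in control, Hbb-bh1 being at 284 and 293 CPM in control and 160 and 42.0 CPM in Isl1_KO. Ptprc was at 0 or 1 count in every library. Of 8 endothelial genes 0 were called by edgeR and 1 by DESeq2, and 3 were lower and 0 higher at an unadjusted p under 0.05. Their median was -0.431 (-0.204 in Isl1_KO replicate 1 and -0.783 in replicate 2), with Tek at -1.18 and Tie1 at -1.02, and Emcn had 15 and 10 counts in control and 0 in both Isl1_KO libraries. The endothelial sums of 400 and 398 CPM in control and 356 and 390 CPM in Isl1_KO were mostly Kdr, at 217, 214, 186 and 278 CPM. The 8 pluripotency genes summed to 132, 129, 80.3 and 105 CPM, and 0 of them were called by edgeR or DESeq2 or had an unadjusted p under 0.05. Tdgf1 was at 39.6 and 40.4 CPM in control and 3.31 and 20.7 CPM in Isl1_KO, while Pou5f1 was at 5.45 and 5.91 CPM in control and 6.0 and 14.7 CPM in Isl1_KO, and Nanog likewise was highest in Isl1_KO replicate 2. The part of these shifts in the levels of the cell cycle genes was not tested. In bulk RNA, fewer cells of a type and less RNA per cell cannot be told apart.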

How the data were processed

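Poly(A) RNA of sorted Nkx2-5-EmGFP+ cells at day 5 was sequenced from stranded libraries, 2 of control and 2 of Isl1_KO clones. The titles gave each library its group and number. They name a knockout, and were followed where the series' design text names a knockdown. The study does not say whether the clones were differentiated on separate occasions, so p-values measure the spread between these libraries.

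Per the study's methods, the authors mapped reads to mm9 with STAR (introns of 20 to 500000 bases), and the deposited counts are whole exonic reads per RefSeq transcript, made with HOMER on both strands together. The deposited RPKM values came from edgeR of the authors and were used only to check the counts, which gave them back within 0.746% for entries with at least 200 counts. Columns of the authors' own comparison were not used: log2 fold changes with their standard errors, p-values with their adjusted values, the Wald score and a signal column (the mean normalised count), all from the authors' DESeq2. Tool versions were not stated. The number of per-sample columns matched to no sample was 0.

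One entry per symbol was kept, the one with most counts (57.0% of counts in 31507 entries; 18 members had several). Totals were 8821517 to 13186109 counts per library, and 3 counts correspond to 0.231 to 0.341 CPM. Such floors cover counting error only. Groups were compared in edgeR 4.0.16 (R 4.3.3) by its two-sided quasi-likelihood F test with TMM factors, filterByExpr and no covariate. P-values were adjusted by Benjamini-Hochberg over the 12715 genes tested, and 0.05 was the threshold. DESeq2 1.42.0 was run on 16855 genes with at least 1 count, and its adjusted p was kept as missing where it gave none. CPM used effective library sizes, and errors are the SD of 2 libraries or the SE from the F statistic. With 2 libraries against 2 an exact permutation test cannot give a two-sided p under 0.333. The script was tested on simulated counts with known fold changes. Positions of genes come from GENCODE vM1 (NCBIM37, mm9) and promoters from RefSeq (GRCm38.p6), matched by symbol. No coordinate was carried from one build to the other. Python 3.11.15, pandas 2.3.3, numpy 2.4.6 and matplotlib 3.10.9 were used for tables and plots.

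The members and the gene lists were chosen with earlier results of these data known, so a count or median over a list is a description, set beside that of all tested genes, and no p is given for a list. Per-library values are given by rule for members past the adjusted threshold and for the highest and lowest member of each role, and of the further lists for genes past that threshold. The other members and Pole2, Myc, Mycl, Mycn, Mdm2 and Trp53 were named after their values were seen. Alternatives were DESeq2, upper-quartile factors, no filter, at least 10 counts in every library, the replicate number as a block, an offset for transcript length, that block with that offset, all transcript entries, and leaving out each library. Deviations from the group means of libraries with the same number had an r of 0.00947 over 12715 genes.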

Additional observations from a re-analysis of the deposited data

How the results depend on the processing

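The medians of all members, of the replication genes and of the mitotic genes kept their sign under every alternative, at 0.174 to 0.29, 0.264 to 0.353 and 0.232 to 0.363. Calls were less stable than medians. Members called were 3, and 5 with DESeq2 or with no filter. They ran from 0 to 32 with 1 library left out, 0 without either control library, and 32 or 24 without Isl1_KO replicate 1 or 2, where the spread comes from the control pair alone and the lone library is assumed to vary like it. The count at the study's criteria ran from 2 to 5, with 5 without Isl1_KO replicate 1. The calls were 27 to 6350 over all genes in these fits. Of the further genes, the replication list had 0 called, 3 with DESeq2, 2 with no filter, 1 with the length offset and 0 to 41 with 1 library left out; the mitotic list 0, 1, 2, 2 and 0 to 45. With 1 library left out the G1 list had 0 to 18 and the p53 list 0 to 13.

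The median of the cyclins and kinases was 0.125 to 0.214 with 1 library left out, and that of the E2F and pocket genes 0.0878 to 0.138. That of the inhibitors (-0.104) was 0.0488 with no filter, -0.119 with at least 10 counts, -0.146 with the length offset, and -0.0967 to 0.0258 with 1 library left out. With no filter Cdkn2d enters this list, and elsewhere the cause was not tested. Cdkn2a ran from -0.65 to 1.05 and Cdkn2c from -0.47 to 0.11 with 1 library left out. The length offset put the median of all genes at 0.05, and medians are relative to it.

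With the replicate number as a block, 2 members were called (Mcm10 and Ccnd2), with Cdc6 at an adjusted p of 0.0502, and the inhibitor median was -0.0955. The block with the length offset gave 3 members, 2 further replication genes, 3 further mitotic genes and an inhibitor median of -0.138. Libraries with the same number showed no shared deviation (r 0.00947). The control pair differed by little more than sampling noise, so this r cannot decide whether the numbers pair the clones. The block moved the calls over all genes from 311 to 454. Depth limits Cdkn2a, Cdkn2b, Cdkn2c and Cdkn2d, with at most 38 counts in a library.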
